A study of Homo sapiens with 12 samples.

Results

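Imprinted genes were followed in EndoC-βH3 cells before and after entry into senescence. The genes were 10 imprinted loci known from the islet: H19, MEG3, DLK1, PEG3, PEG10, NNAT, PLAGL1, KCNQ1OT1, GRB10 and MEST. They were chosen by symbol from the gene column of the RNA table, by a rule that uses no measured value. Earlier results of these data were known when these genes and the gene lists used below were chosen. Of the 10 genes, 7 had a row among 35337 rows, and H19, MEG3 and KCNQ1OT1 are not analysed here. Of the 7 genes, 6 passed the filter used for testing, a mean of at least 5 normalised reads over all samples, and PEG3 did not.

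An imprinted gene is transcribed mainly from the copy inherited from one parent, because that copy and its partner carry different DNA methylation at a control region since the germline. Imprinted genes lie in clusters that hold growth factors, cell-cycle inhibitors and long non-coding RNAs, and several of them are known for roles in fetal growth and in the number and insulin release of beta cells. The reads counted here were not assigned to the maternal or paternal copy, so the values are total levels of each transcript and do not measure imprinting itself.

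EndoC-βH3 is a human beta-cell line from fetal pancreas, immortalised with SV40 large T antigen and hTERT, and it carries a tamoxifen-activated CreER recombinase. All libraries came from this 1 line, which the labels call wild type. The 6 non-senescent libraries (labelled control) came from cells that kept the transgenes, and the 6 senescent libraries from cells treated with 4-hydroxytamoxifen for 3 weeks, after which the transgenes are excised. Each group had 2 libraries in batch A and 4 in batch B, as the letters of the sample titles give them. The labels do not say whether libraries of a batch came from separate cultures, so p-values measure the spread between these libraries, which may be technical.

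Sequencing depth was 8873569 to 17106776 reads per library in batch A and 4672924 to 7063264 in batch B. A gene without reads in a library could still have had up to 3 reads, which is 1.35 to 4.52 normalised reads depending on the library. TERT, the catalytic telomerase subunit, ranged from 47.7 to 137 normalised reads in non-senescent and from 78.5 to 136 in senescent libraries. Whether a read from the hTERT transgene is counted in the TERT row is not given in the sources used here, so this row does not check the excision. All 6 proliferation markers fell, among them MKI67 with a log2 fold change of -2.83. All 12 beta cell markers passed the filter, with 5 higher, INS, the insulin gene, by 2.23, and none lower. Over all genes tested, 11.6% were called higher and 11.8% lower. Of the 12 markers, 7 had positive and 5 negative values. NKX6-1 was called lower in batch B alone (-0.61, against 0.11 in batch A). SLC30A8 was called lower in batch A alone (-0.63, against 0.08 in batch B). NEUROD1 was not called, with a value of -0.22, although its senescent libraries lay below the non-senescent ones in both batches. Of 4 tested markers of other islet endocrine cells, GCG, SST and HHEX fell. The 6 listed markers summed to 164558 to 290813 normalised reads in non-senescent and 115744 to 145798 in senescent libraries. Most of this was SST, at 159785 to 287479 and 114932 to 142626, where INS stood at 11021 to 34331 and 49685 to 185508. SST gave -1.24 in batch A and -0.35, not called, in batch B, and GCG -2.36 and -0.77. Both differences between batches passed their test (limma interaction, adjusted p = 0.000747 for SST and 6.81e-06 for GCG). The summed acinar and duct markers were at 272 to 437 and 221 to 405 normalised reads, with CPA1 higher and KRT19 lower. Of 6 mesenchymal markers 2 were tested and neither was called, PDGFRB had no reads, and the sums were 17.8 to 126 and 13.9 to 54.9. Of 5 endothelial and immune markers 3 were tested, PTPRC was lower, VWF had no reads, and the sums were 24.6 to 62.1 and 17.96 to 53.3. The part of these shifts in the results on imprinted genes was not tested, and in bulk RNA fewer cells of a type and less RNA per cell cannot be told apart.

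Of the 6 tested imprinted genes, PLAGL1 was called higher in senescent cells and none was called lower. Calls were made by limma with batch as a covariate, where the Benjamini-Hochberg adjusted p was under 0.1 and the fold change was also over 1.5, and 23.4% of all 13847 genes tested met both limits (11.6% higher and 11.8% lower). The median log2 fold change of the 6 genes was 0.13, with 4 positive and 2 negative values, and that of all genes tested was 0.01. Without the limit on the fold change PEG10 was also past the adjusted p as a higher gene and none as a lower one, where 23.2% of all genes were higher and 22.3% lower, or 45.5% in all. Within batch B alone both PLAGL1 and PEG10 were called, against 25.1% of all genes tested in that batch. None of the 6 genes passed the test of a response that differs between the batches, which 4.21% of all genes passed.

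**Figure D1:**
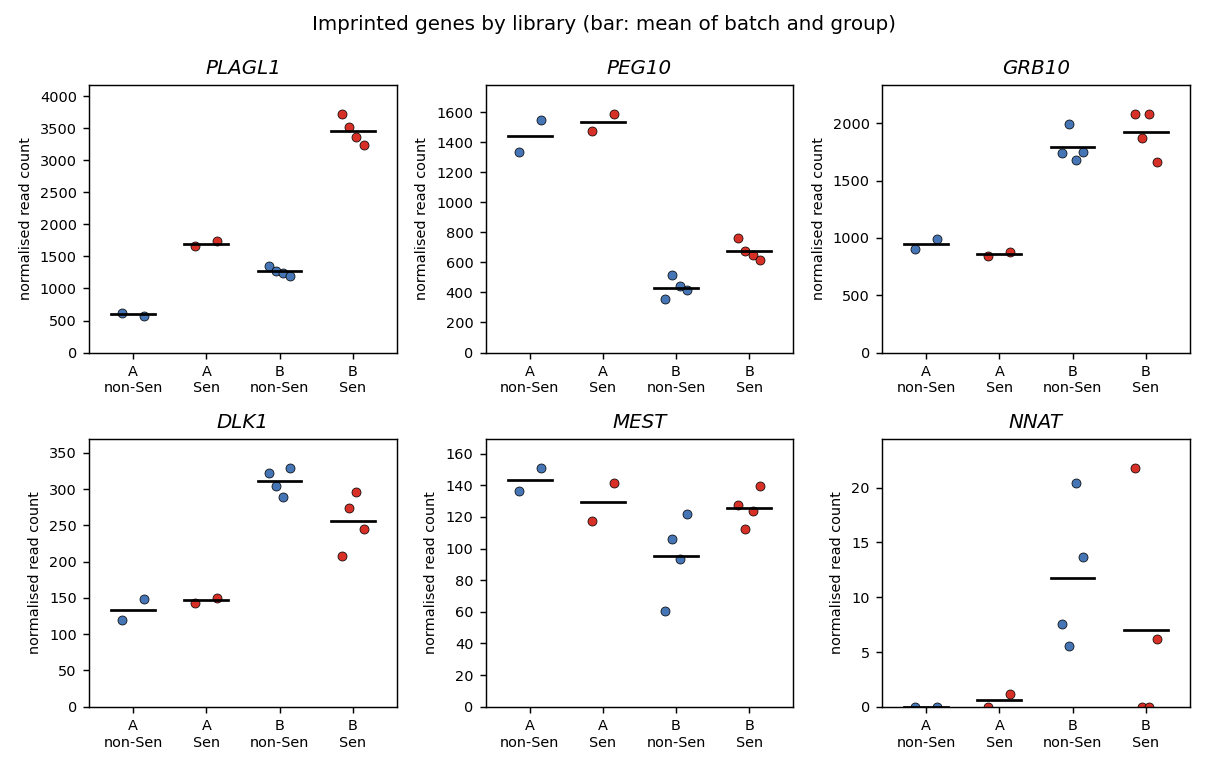
Normalised read counts of the 6 tested imprinted genes in each of the 12 libraries, on linear axes that start at 0, by batch and group; each point is 1 library and each bar the mean of a batch and group. The senescent points of PLAGL1 lie above all non-senescent points of their own batch (1656 and 1735 against 576 and 619 in batch A), whereas the points of DLK1, MEST and NNAT overlap between groups in batch B.

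PLAGL1, also known as ZAC1, encodes a zinc-finger transcription factor that can arrest the cell cycle, and its overexpression is a known cause of transient neonatal diabetes. In batch A it stood at 619 and 576 normalised reads in the non-senescent libraries and at 1656 and 1735 in the senescent ones. In batch B it stood at 1358, 1278, 1244 and 1193 in the non-senescent libraries and at 3730.0, 3520.0, 3364 and 3237 in the senescent ones. Every senescent library was above every non-senescent library, across batches as well as within them, and batch B was higher than batch A in both groups. PLAGL1 rose 2.76-fold, a log2 fold change of 1.47 with a standard error of 0.06 and a 95% confidence interval of 1.34 to 1.60 (limma, adjusted p = 9.08e-12). Batch A alone gave a log2 fold change of 1.504 (limma, adjusted p = 8.21e-07) and batch B alone 1.45 (limma, adjusted p = 3.62e-10). The test of the difference between the batches gave an adjusted p of 0.881. PLAGL1 was the 1 gene of the 6 whose groups were fully separated, with one direction in both batches, a pattern found upward in 11.9% of all genes tested. Proliferation markers fell and INS rose in the same libraries, as given above.

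PLAGL1 is annotated in GENCODE v44 on the minus strand of chromosome 6, from 143940300 to 144064599 of GRCh38. Of its 27 annotated transcripts, 13 end within 500 bases of their most common 3′ end. The libraries read the 3′ end of transcripts, so the values do not say from which start site PLAGL1 was transcribed. RefSeq lists 5 start regions for the gene on GRCh38.p14, each taken here as 250 bases before to 50 bases after the start. The pair shown held the most CpG dinucleotides of the 5, with 31 and 39, against a median of 14 over all 35116 start regions of the table. As many as 31 were found in 20.7% of all start regions, and as many as 39 in 8.71%. Start regions are shown because the methylation that keeps an imprint sits at CpG-rich stretches of this kind, although no methylation was measured in these libraries. Capitals mark TGCCGC and its reverse complement GCGGCA, the short sequence that the imprint-keeping zinc-finger protein ZFP57 binds when it is methylated. Both strands were searched, overlapping matches were counted, and 16.7% of all start regions held at least 1. The region at chr6:144064550-144064849 held none and the one at chr6:144008210-144008509, at the annotated start of the RNA HYMAI, held 2. Both are printed 5′ to 3′ on the minus strand.
PLAGL1 outer start region: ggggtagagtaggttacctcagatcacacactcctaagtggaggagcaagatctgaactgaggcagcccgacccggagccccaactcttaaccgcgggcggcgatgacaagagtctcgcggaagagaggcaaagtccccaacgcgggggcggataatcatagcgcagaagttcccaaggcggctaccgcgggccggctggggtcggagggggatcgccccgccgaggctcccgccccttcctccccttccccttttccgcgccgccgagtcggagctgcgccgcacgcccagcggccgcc
PLAGL1 inner start region: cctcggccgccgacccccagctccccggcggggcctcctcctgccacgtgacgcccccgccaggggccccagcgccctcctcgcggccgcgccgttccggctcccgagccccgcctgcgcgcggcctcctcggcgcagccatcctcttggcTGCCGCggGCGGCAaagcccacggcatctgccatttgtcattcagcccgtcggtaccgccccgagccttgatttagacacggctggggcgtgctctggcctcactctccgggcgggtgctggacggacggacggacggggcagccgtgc

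GRB10 and MEST also had start regions in the table, 5 each, and the richest of each in CpG is given for comparison with PLAGL1, since neither gene was called. The GRB10 region at chr7:50792825-50793124, on the minus strand, held 49 CpG, a number that 1.60% of all start regions reached, and no match of the hexamer. Another GRB10 region close to it, at chr7:50793404-50793703, held 44 CpG and 1 match and is not printed, so GRB10 is not without a match. The MEST region at chr7:130491835-130492134, on the plus strand, held 25 CpG, a number that 32.03% reached, and 3 matches, of which a pair overlap in TGCCGCGGCA. A match is a description of the letters and is not shown to be a bound site.
GRB10 start region: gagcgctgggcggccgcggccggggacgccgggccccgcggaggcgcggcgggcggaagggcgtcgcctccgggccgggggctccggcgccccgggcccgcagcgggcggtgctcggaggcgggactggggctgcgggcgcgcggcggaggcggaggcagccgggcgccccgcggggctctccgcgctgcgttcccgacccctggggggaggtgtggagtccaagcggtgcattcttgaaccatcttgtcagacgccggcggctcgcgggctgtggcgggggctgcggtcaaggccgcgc
MEST start region: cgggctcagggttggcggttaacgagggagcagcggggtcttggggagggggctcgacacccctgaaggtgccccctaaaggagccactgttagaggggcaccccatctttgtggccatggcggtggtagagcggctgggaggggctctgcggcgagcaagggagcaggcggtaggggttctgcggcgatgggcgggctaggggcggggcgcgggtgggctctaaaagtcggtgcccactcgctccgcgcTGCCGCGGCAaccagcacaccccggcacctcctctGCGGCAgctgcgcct

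PEG10 encodes a protein derived from a retrotransposon and is transcribed from the paternal copy. The batch A values were 1335 and 1546 normalised reads in the non-senescent libraries and 1475 and 1591 in the senescent ones. The batch B values were 357, 513, 446 and 415 in the non-senescent libraries and 765, 676, 647 and 619 in the senescent ones. The groups overlapped in batch A and did not overlap in batch B, and batch A was the higher batch, by 3.33-fold in non-senescent and 2.27-fold in senescent cells. Over both batches the log2 fold change was 0.47 with a standard error of 0.11 and an interval of 0.24 to 0.70 (limma, adjusted p = 0.00258), a 1.38-fold difference that missed the fold limit. Batch A alone gave 0.09 (limma, adjusted p = 0.468) and batch B alone 0.65 (limma, adjusted p = 0.000366). The response in batch B minus that in batch A was 0.56 on the log2 scale, which did not pass the test of the difference (limma interaction, adjusted p = 0.139). PEG10 lies on the plus strand of chromosome 7, from 94656325 to 94669695, and its exons overlap an exon of SGCE on the other strand. SGCE, a sarcoglycan gene of the same imprinted cluster, had a log2 fold change of 0.00 (interval -0.26 to 0.26).

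DLK1 encodes a transmembrane protein related to Notch ligands, is found in fetal endocrine pancreas and beta cells, and is transcribed from the paternal copy. The batch A values were 119 and 149 normalised reads in the non-senescent libraries and 143 and 150.4 in the senescent ones. Batch B gave 322, 304, 289 and 329 in the non-senescent libraries and 207, 274, 295 and 245 in the senescent ones. The groups overlapped within each batch, and in batch B all senescent libraries except B3 were below every non-senescent one. The log2 fold change was -0.15 with a standard error of 0.11 and an interval of -0.39 to 0.09 (limma, adjusted p = 0.325). Batch A alone gave 0.14 and batch B alone -0.29 (limma, adjusted p = 0.462 and 0.0906), and the difference between batches did not pass its test (adjusted p = 0.353). With 2754 reads in total, the interval excluded a 1.5-fold change of DLK1 in either direction. The gene lies on the plus strand of chromosome 14, from 100725705 to 100738224. MEG3, the non-coding RNA transcribed from the maternal copy of the same cluster, is not analysed here, so no ratio of the pair is given.

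GRB10 encodes an adaptor that binds the insulin and IGF-I receptors and dampens their signalling. Batch A gave 901 and 987 normalised reads in the non-senescent libraries and 841 and 878 in the senescent ones. In batch B it stood at 1745, 1991, 1678 and 1753 in the non-senescent libraries and at 2086, 1875, 2085 and 1663 in the senescent ones. The senescent libraries were the lower ones in batch A, without overlap, and the groups overlapped in batch B. The log2 fold change was 0.02 with a standard error of 0.08 and an interval of -0.14 to 0.19 (limma, adjusted p = 0.839). With 18020 reads in total, the interval excluded a change as large as 1.5-fold, which is 0.58 on the log2 scale, in either direction. The within-batch values were -0.13 and 0.10 (limma, adjusted p = 0.256 and 0.422), and the value was -0.08 when libraries were scaled to the same total, so the sign of the GRB10 value depended on the batch and the scaling. The gene lies on the minus strand of chromosome 7, from 50590063 to 50793462.

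MEST encodes a protein of the alpha/beta hydrolase fold that is transcribed from the paternal copy in many fetal tissues. In batch A it stood at 136 and 151 normalised reads in the non-senescent libraries and at 118 and 141 in the senescent ones. The batch B values were 60.2, 106, 93.5 and 122 in the non-senescent libraries and 127, 112, 124 and 139.5 in the senescent ones. The groups overlapped in both batches, and the lowest library was non-senescent B1. The log2 fold change was 0.24 with a standard error of 0.16 and an interval of -0.11 to 0.59 (limma, adjusted p = 0.269). Batch A alone gave -0.15 and batch B alone 0.44 (limma, adjusted p = 0.109 for the latter), and without the non-senescent library B1 the value over both batches was 0.09. MEST had 1642 reads in total. It lies on chromosome 7 from 130486171 to 130506465 and overlaps COPG2 on the other strand, for which the log2 fold change was -0.03.

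NNAT and PEG3 had few reads in every library. NNAT, neuronatin, is a small membrane protein of the endoplasmic reticulum that is known to support insulin processing in beta cells. It had no reads in the non-senescent libraries of batch A and 5, 4, 14 and 11 in those of batch B, against 0 and 2, and 18, 0, 0 and 5, in the senescent ones. NNAT lies on the plus strand of chromosome 20, from 37521206 to 37523690. The reads were scattered over both groups, with a single senescent library, B1, holding 18 of the 25 senescent reads. The log2 fold change was -0.93 with a standard error of 0.74 and an interval of -2.50 to 0.64 (limma, adjusted p = 0.348). On recovered reads it was -0.58 by edgeR and -0.25 by DESeq2, and neither tool called NNAT. With 59 reads in all, the interval covers both a fall and a rise of more than 1.5-fold. PEG3, a zinc-finger gene of the paternal copy, had 5 reads in all, 3 of them in non-senescent and 2 in senescent libraries. No fold is given for it, and it shares exons with ZIM2 on the same strand.

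**Figure D2:**
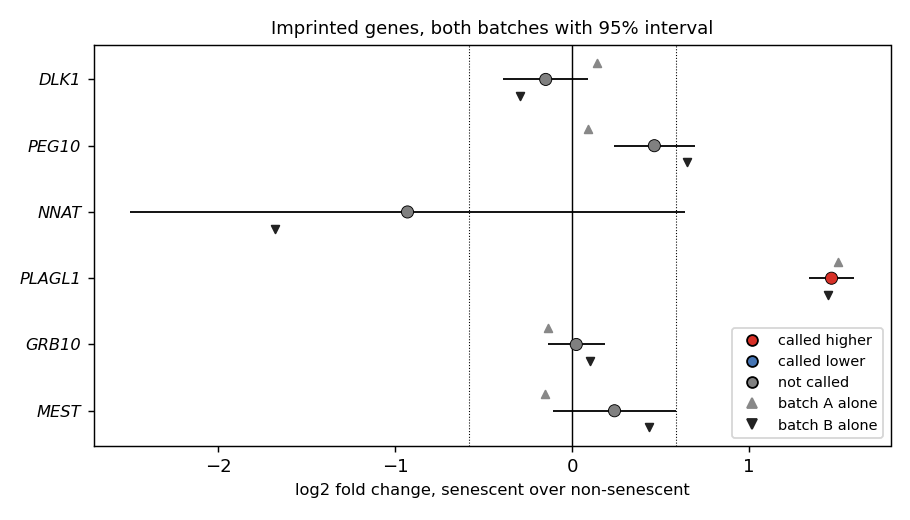
Log2 fold change of senescent against non-senescent cells for the 6 tested imprinted genes, over both batches (point, coloured by call) with the 95% confidence interval (line), and within batch A and batch B alone (triangles); dotted lines mark the fold limit. PLAGL1 lies at 1.47 with both batches beside it, PEG10 lies at 0.09 in batch A and 0.65 in batch B, and the intervals of DLK1, GRB10, MEST and NNAT include 0.

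GRB10, DLK1 and PEG10 differed more between the batches than between the groups. In non-senescent cells PLAGL1 was 2.12-fold, GRB10 1.90-fold and DLK1 2.33-fold higher in batch B than in batch A, and in senescent cells the same ratios were 2.04, 2.24 and 1.74. MEST went the other way, 1.51-fold higher in batch A in non-senescent and 1.03-fold in senescent cells. Batch and sequencing depth cannot be told apart in this design. The deviations of the genes from their batch means were related across the 12 libraries to different degrees, and these libraries share batch and group. Pearson's r was 0.77 between PEG10 and PLAGL1, 0.71 between PEG10 and MEST, and -0.63 between DLK1 and PEG10. The genes whose pattern was most like that of PLAGL1, among 11682 genes with a mean of at least 20, were IAPP and FGFR3. IAPP, the islet amyloid polypeptide, had r = 0.996, and FGFR3, a fibroblast growth factor receptor, had r = 0.994. Only batch means were removed, so each r includes the difference between the groups and does not show regulation in common.

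Neighbours in the imprinted clusters of the 10 genes were described from a list of 24 genes, of which 18 had a row and 11 were tested. IGF2, CDKN1C and PPP1R9A rose and SLC22A18 and PHLDA2 fell, 5 of 11 genes, where 23.4% of all genes tested were called (11.6% higher and 11.8% lower). BLCAP, DDC and COBL passed the adjusted p without the fold limit, and RTL1 and DIO3 had no reads. The median log2 fold change of the 11 genes was 0.44, against 0.01 over all genes tested.

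IGF2, the fetal insulin-like growth factor transcribed from the paternal copy next to H19, stood at 3070.1 and 3085 normalised reads in the non-senescent libraries of batch A and at 20444 and 22155 in the senescent ones. Batch B gave 4886, 4795, 4999 and 4169.6 in the non-senescent libraries and 39873, 38315, 37301 and 45284 in the senescent ones. All senescent libraries were far above all non-senescent ones. IGF2 rose 7.95-fold, a log2 fold change of 2.99 with a standard error of 0.07 (limma, adjusted p = 2.89e-14). Its log2 fold change was 2.79 from batch A alone and 3.09 from batch B alone. IGF2 lies on the minus strand of chromosome 11, from 2129112 to 2158391. Its exons overlap those of the read-through gene INS-IGF2 on the same strand, so reads may have been divided between the rows. The INS-IGF2 row held 106 reads of non-senescent cells and 141 of senescent cells, all of them in batch A. IGF2 was described without H19, which is not analysed here.

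CDKN1C, the cyclin-dependent kinase inhibitor p57 transcribed from the maternal copy, lies in the cluster that KCNQ1OT1 silences on the paternal copy. It stood at 2606 and 2766 normalised reads in the non-senescent libraries of batch A and at 7403 and 7744 in the senescent ones. In batch B it stood at 1079.7, 1086, 1036 and 1288 in the non-senescent libraries and at 2899.9, 3325, 3775 and 3440.2 in the senescent ones. The groups did not overlap, even across batches. CDKN1C rose 2.93-fold, a log2 fold change of 1.55 with a standard error of 0.07 (limma, adjusted p = 4.06e-11). Batches A and B on their own gave 1.496 and 1.58. The gene lies on the minus strand of chromosome 11, from 2883213 to 2885775.

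**Figure D3:**
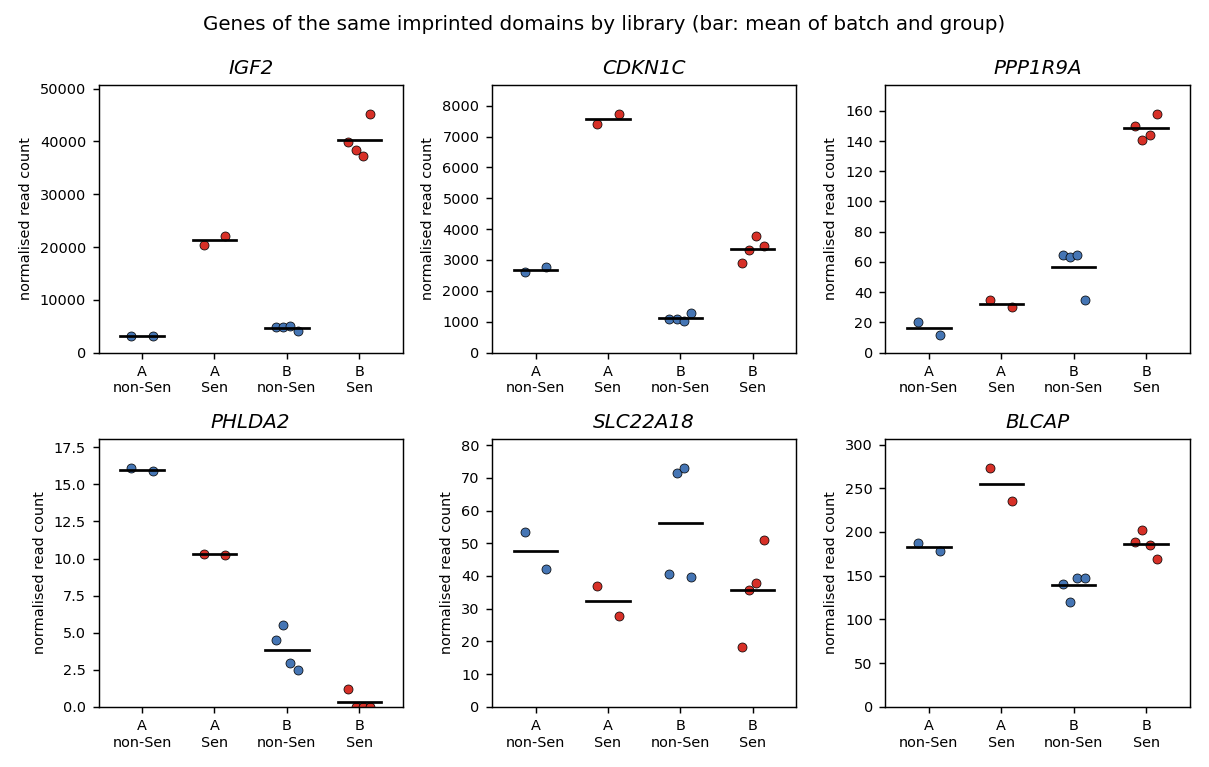
Normalised read counts of IGF2, CDKN1C, PPP1R9A, PHLDA2, SLC22A18 and BLCAP in each of the 12 libraries, on linear axes that start at 0, by batch and group; each point is 1 library and each bar the mean of a batch and group. The senescent points of IGF2 lie at 20444 and above and its non-senescent points at 4999 and below, and the points of SLC22A18 overlap between groups in batch B.

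Among other genes of the CDKN1C cluster, SLC22A18 and PHLDA2 fell. SLC22A18, a transporter gene, fell from a mean of 53.4 ± 15.4 to 34.5 ± 10.99 normalised reads (SD, n = 6 each), with a log2 fold change of -0.63 (limma, adjusted p = 0.0491). Batch A alone gave -0.55 (limma, adjusted p = 0.074), under the fold limit, and batch B alone -0.67 (limma, adjusted p = 0.118), past the fold limit but not the adjusted p. The gene was also not called without non-senescent B2 (-0.54), non-senescent B3 (-0.54) or senescent B1 (-0.45). PHLDA2, a growth-restraining gene of the placenta, had 29 and 20 reads in batch A and 3, 4, 2 and 2 in batch B of non-senescent cells. In senescent cells it had 23 and 17 reads in batch A and 1, 0, 0 and 0 in batch B. Its log2 fold change was -1.496 with a standard error of 0.43 (limma, adjusted p = 0.0102), and -0.47 with a pseudocount of 8 in place of 1, where it was no longer called. Batch A alone, which held 49 of its 60 non-senescent and 40 of its 41 senescent reads, gave -0.59 (limma, adjusted p = 0.169), and in batch B the gene was below the filter. KCNQ1, a potassium channel gene below the filter, had 7 reads over the non-senescent libraries and 46 over the senescent ones, not scaled for depth. In the fit without the filter it was called higher, with a log2 fold change of 2.00 (limma, adjusted p = 0.00708).

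Around PEG10 on chromosome 7, PPP1R9A, a regulator of protein phosphatase 1 and actin, rose while the log2 fold change of SGCE was near 0. PPP1R9A stood at 20.01 and 11.9 normalised reads in the non-senescent libraries of batch A and at 34.6 and 30.2 in the senescent ones, and in batch B at 34.8 to 64.7 and 141 to 158. The groups did not overlap within either batch. The log2 fold change was 1.28 with a standard error of 0.19 (limma, adjusted p = 3.67e-05). The batches on their own gave 1.02 and 1.41. DDC, the aromatic amino acid decarboxylase beside GRB10, had a log2 fold change of 0.46 (limma, adjusted p = 0.00296). Batch A gave 0.93 and batch B 0.23, and this difference passed its test (interaction, adjusted p = 0.024). BLCAP, which overlaps NNAT on the other strand, had a log2 fold change of 0.44 (limma, adjusted p = 0.00163), a 1.36-fold difference under the fold limit.

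Imprinted genes of other clusters, 25 listed and 19 tested, gave 3 genes that rose and 3 that fell, where 11.6% of all genes tested were called higher and 11.8% lower. Their median log2 fold change was 0.08. DIRAS3, a RAS-related gene known as a growth inhibitor, stood at 33.3 and 29.4 normalised reads in the non-senescent libraries of batch A and at 13.5 and 13.9 in the senescent ones. Batch B gave 32.1 to 44.1 in the non-senescent libraries and 9.7 to 22.0 in the senescent ones. The groups did not overlap, and DIRAS3 fell by 1.26 on the log2 scale with a standard error of 0.22 (limma, adjusted p = 0.000243). Its single start region in the table, at chr1:68050578-68050877 on the minus strand, held 21 CpG and 2 matches of the hexamer, and is shown because DIRAS3 fell most of the 19 genes.
DIRAS3 start region: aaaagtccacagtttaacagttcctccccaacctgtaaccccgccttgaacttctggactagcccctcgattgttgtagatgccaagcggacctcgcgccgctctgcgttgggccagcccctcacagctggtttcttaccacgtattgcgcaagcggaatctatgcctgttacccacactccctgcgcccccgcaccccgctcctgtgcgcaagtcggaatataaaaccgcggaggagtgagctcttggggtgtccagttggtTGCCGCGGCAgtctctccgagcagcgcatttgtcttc

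ZFAT, a zinc-finger gene, and INPP5F, an inositol phosphatase gene, fell by 0.83 and 0.69 on the log2 scale (limma, adjusted p = 5.42e-05 and 4.53e-05). MAGEL2, NAP1L5 and IGF2R rose by 0.88, 0.66 and 0.59 (limma, adjusted p = 1.63e-05, 0.00299 and 0.0148). MAGEL2 lies in the Prader-Willi region and stood at 693 and 777 normalised reads in non-senescent and 907 and 1007 in senescent libraries of batch A, and at 200.03 to 248 and 453 to 567 in batch B. Its groups did not overlap in either batch, with log2 fold changes of 0.38 in batch A, under the fold limit, and 1.14 in batch B. NDN, the gene next to it in the region, had a log2 fold change of 0.04 with an interval of -0.10 to 0.19, which excluded a 1.5-fold change. IGF2R, the receptor that clears IGF-II, lay just past the fold limit and was not called without non-senescent B1, B2 or B4 or senescent B2 or B4, each left out alone, with values of 0.46 to 0.58. Batch A alone gave 0.10 for IGF2R (limma, adjusted p = 0.497) and batch B alone 0.83 (limma, adjusted p = 0.00452). It was also not called with libraries scaled to the same total (0.48), with upper quartile scaling (0.57), with a pseudocount of 8 (0.57) or by edgeR (0.57). NAP1L5 was not called without non-senescent B2 (0.54) or with the same total (0.56). Outside the 10 genes, 11 of 30 tested genes listed as imprinted were called, 6 higher and 5 lower, against 23.4% of all genes tested. Whether each listed gene is imprinted in these cells was not measured.

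**Figure D4:**
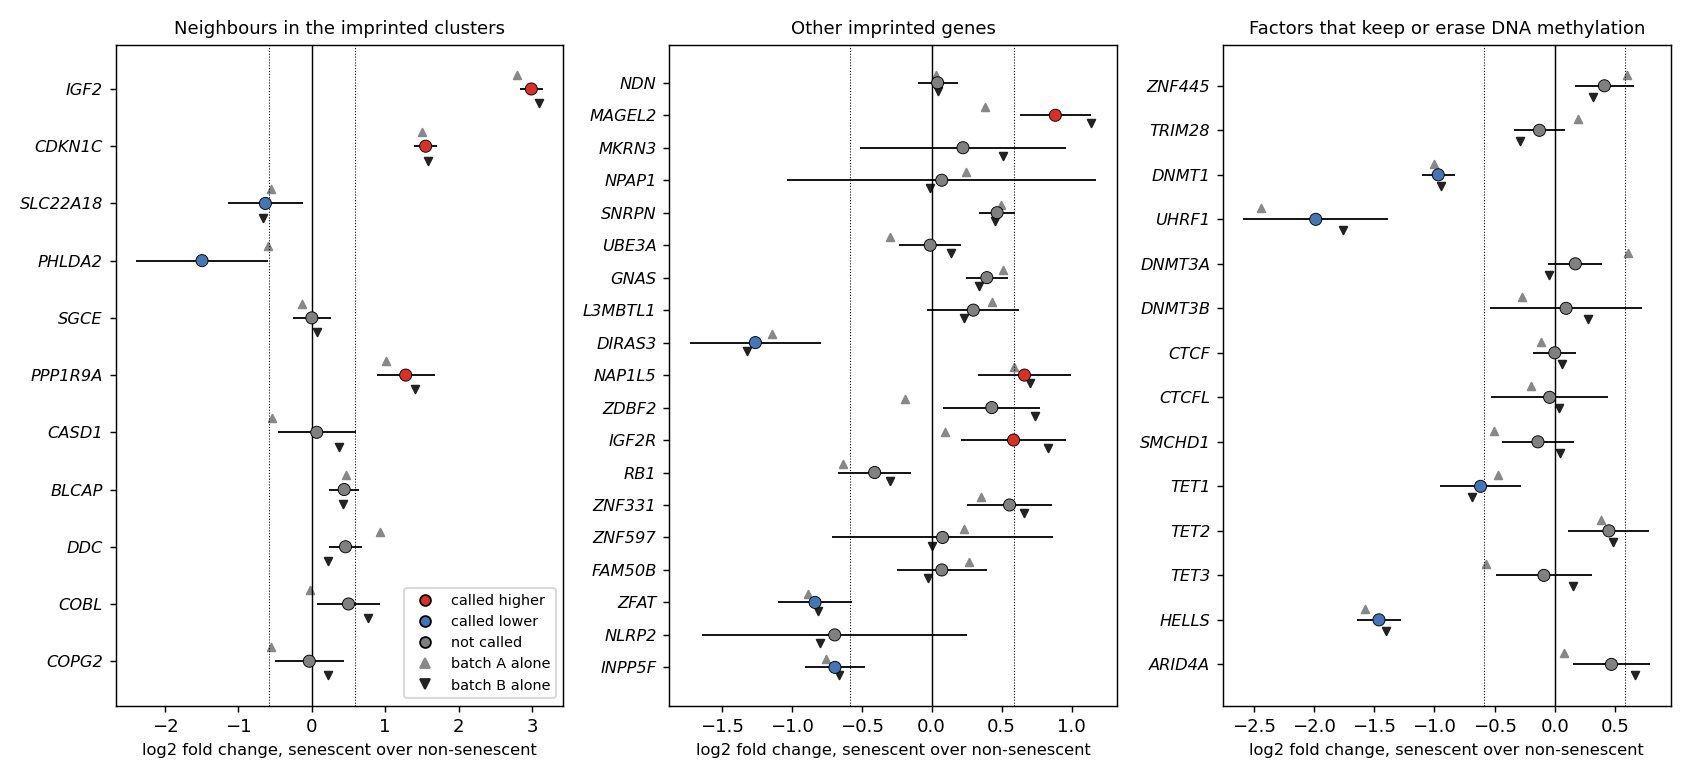
Log2 fold change of senescent against non-senescent cells with the 95% confidence interval (line). Shown are 11 neighbours, 19 other imprinted genes and 14 genes that set, keep or erase imprints. Triangles mark batch A and batch B alone, dotted lines the fold limit and colour the call. IGF2 lies at 2.99, DIRAS3 at -1.26 and UHRF1 at -1.99.

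Genes that set, keep or erase imprints were described from a list of 16, of which 14 were tested. None rose and 4 fell, where 11.6% of all genes tested were called higher and 11.8% lower. The median log2 fold change was -0.07. Because the list also holds TET1, TET2 and TET3, which oxidise methylated cytosine, its count and median do not measure the keeping of imprints. DNMT1, the methyltransferase that copies methylation after replication, stood at 1227 and 1419 normalised reads in the non-senescent libraries of batch A and at 656 and 655 in the senescent ones, and in batch B at 1846 to 2017 and 940.4 to 1107. The groups did not overlap, and DNMT1 fell by 0.97 on the log2 scale with a standard error of 0.06 (limma, adjusted p = 3.26e-09). UHRF1, which brings DNMT1 to newly copied DNA, fell by 1.99 (adjusted p = 3.05e-05), and HELLS, a remodeller of replicating chromatin, fell by 1.46 (limma, adjusted p = 9.85e-10). TET1, which oxidises methylated cytosine, fell by 0.62 (limma, adjusted p = 0.0051), and was not called without non-senescent B1 or B2 or senescent B3 or B4, each left out alone, with values of -0.54 to -0.58, nor with a pseudocount of 8 (-0.56) or in batch A alone (-0.47). All 6 proliferation markers, PCNA among them, fell in the same libraries, and DNMT1, UHRF1 and HELLS are themselves expressed with DNA replication. The part of cell division in their fall was not tested. CTCF, which binds the control region between IGF2 and H19, had a log2 fold change of -0.00 with an interval of -0.18 to 0.18. TRIM28, the partner of ZFP57, had -0.13 (limma, adjusted p = 0.336). ZFP57 itself had 3 reads over the non-senescent libraries and 18 over the senescent ones, not scaled for depth, and was below the filter. Scaled for depth, its libraries held 0 to 2.48 and 0 to 4.85 normalised reads. In the fit without the filter it was called higher, with a log2 fold change of 1.22 (limma, adjusted p = 0.0608).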

How the data were processed

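The 12 libraries were made by CEL-seq, which reads the 3′ end of transcripts. Per the submitters' processing notes, cutadapt, Salmon 0.13.1, GRCh38 and DESeq2 were used, and the values deposited by the authors are a signal, reads per gene over 1 size factor per library, called normalised read counts here. The handling of molecular identifiers and the annotation are not given in the sources used here, so floors cover counting error only. All 196021 non-zero values were whole reads (100%, tolerance 0.01). The deposited log2 fold changes, the test score and the p-values of the authors' own comparison were not used.

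The test was limma 3.58.1 in R 4.3.3 with intensity trend on log2(normalised read count + 1), with batch and group in the model, for 13847 genes with a mean of at least 5. A larger pseudocount lowers the size of changes of low genes, and NNAT gave -1.13 at 0.5 and -0.34 at 8. Against tools run on reads, limma was not always the smaller. NNAT gave -0.93 by limma, -0.58 by edgeR and -0.25 by DESeq2, whereas UHRF1 gave -1.99 by limma and -2.22 by DESeq2. A gene was called where its adjusted p was under 0.1 and its fold change also over 1.5. On recovered whole reads, edgeR 4.0.16 called 3238 genes and DESeq2 1.42.0 called 3223, against 3237 by limma. The share of higher calls was 1605 of 3237, and 1225 of 3317 with libraries scaled to the same total, which moved the median log2 fold change of all genes from 0.01 to -0.09.

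The genes and lists were chosen with earlier results of these data known. Named were the 10 genes, called genes of the imprinting lists, IGF2 and CDKN1C, and for each called gene of the 10 the pair of genes with the highest r; SGCE, BLCAP, DDC, COBL, COPG2, RTL1, DIO3, KCNQ1, NDN, CTCF, TRIM28, ZFP57, TERT, INS-IGF2 and the marker genes named were added after their values were seen. Library numbers shared between groups were not used to pair the libraries in the main test. Between libraries of a group, counts differed by a chi-square of 4.28 to 8.05 per degree of freedom. Methods were tested on simulated data.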

Additional observations from a re-analysis of the deposited data

Results flagged for a closer look

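The 18 NNAT reads of the senescent library B1, 21.8 normalised reads, stood apart from the other 5 senescent libraries, which had 0 to 5 reads. The gap to the nearest library was 0.714 of the whole range, above Dixon's limit of 0.625 for 6 samples. Without this library the mean of NNAT fell below the filter, so no value was fitted. Among 42 gene and group pairs examined this was the 1 that passed. Dixon's limit assumes 6 values from a single population, whereas each group here pools libraries of batches A and B. The share that would pass by chance is therefore not known.

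The response of MAGEL2 in batch B exceeded that in batch A by 0.75 on the log2 scale, and the difference passed its test (limma interaction, adjusted p = 0.0294). Batch A gave 0.38 and batch B 1.14, and non-senescent levels were also lower in batch B. Of all genes tested, 4.21% had such a difference, and none of the 6 tested genes of the chosen 10 had one. The cause was not tested, and batch and depth cannot be told apart.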

How the results depend on the processing

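PLAGL1 was called in all 26 alternatives, with a log2 fold change of 1.36 to 1.504. Some alternatives cannot move this value, which stayed at 1.47. They are a changed or absent filter, no batch term, the replicate block and no fold limit, and the last of these cannot remove a call. PEG10 joined it, making 2 called genes of the 6, within batch B alone and without the fold limit. Directions turned for DLK1 in batch A (0.14), MEST in batch A (-0.15) and GRB10 in batch A (-0.13), with the same total (-0.083) and in the fits without 1 library each, which gave -0.00998 to 0.0596 and were negative without non-senescent B3, senescent B1 or senescent B3. The number of all genes called was 2143 without the batch term, 6301 without the fold limit and 3138 to 3277 with 1 library left out, and the chosen genes gave 1 in each of those 12 fits. Called neighbours were 5, with 3 at a pseudocount of 8, 8 without the filter, 2 without the batch term, 8 without the fold limit and 4 to 6 with 1 library left out. The 6 other imprinted genes called became 11 without the fold limit and 4 to 7 with 1 library left out. In the same fits the 4 called genes that set, keep or erase imprints became 7 and 3 to 5, and without the filter they became 5. Fits with 2 libraries of a batch reduced to 1 assume that the lone library varies like the others. SLC22A18, PHLDA2, TET1, IGF2R, MAGEL2 and PPP1R9A were not called without the batch term. With the shared library numbers as a replicate block 3211 genes were called, and the calls among the lists numbered the same. The block lowered the genes with a batch difference from 583 to 356. Same-numbered libraries correlated at -0.10 in batch A and -0.017 to 0.0078 in batch B. With 2 libraries per group in batch A, all pairs there have the same size of correlation by construction. These values cannot show whether same-numbered libraries shared a culture. Of 539 values of 21 named genes under alternatives, 497 kept direction and side of the threshold, 33 lost a call, 2 gained one and 7 turned. The 539 include the alternatives that cannot move a value, so the share that kept direction is partly fixed in advance. Why calls changed was not tested. Ratios of opposite-copy pairs were not run, because H19, MEG3 and KCNQ1OT1 are not analysed here. Low read numbers limit NNAT, PEG3 and ZFP57 in both batches and PHLDA2 in batch B.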
